A study of Rattus norvegicus with 14 samples.

Results

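Matrix metalloproteases are zinc enzymes that cut collagens, laminins, proteoglycans and other proteins around cells, and the tissue inhibitors of metalloproteases (TIMPs) bind and block them. The genes described here are 6 protease genes (Mmp2, Mmp7, Mmp9, Mmp11, Mmp14 and Mmp16) and 3 inhibitor genes (Timp1, Timp2 and Timp3), chosen by symbol in the array annotation. All 9 had a transcript cluster with a single symbol, 1 cluster each, among the 18166 genes tested. The organ is the epididymis, a long coiled duct that receives spermatozoa from the testis, taken from Sprague-Dawley rats for which the labels name no treatment. Whole organs were pooled, and each pool was put on its own RatGene 2.0 ST array. There were 3 pools of day 7, 4 pools of day 18, 4 pools of day 28 and 3 pools of day 60 after birth. How many animals went into a pool is not given in the sources used here. Nothing in the labels says which pools share animals or litters, so p-values measure the spread between these pools. The sample titles say epididymal cells but name no step that separated cells. With whole organs, a value adds up the RNA of duct lining, stroma, muscle, vessels, blood and luminal content. Fewer cells of a type therefore cannot be told apart from less RNA per cell.

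The enzymes are made as inactive precursors and work outside the cell or at its surface. The membrane-bound enzyme encoded by Mmp14 cuts collagen and activates the gelatinase encoded by Mmp2, and the inhibitor encoded by Timp2 is part of the surface complex in which this takes place. In organs built from a branching or coiling epithelial tube, matrix around the tube is laid down and removed as the duct lengthens. Mmp7 differs from the others in that gland epithelium is its usual source.

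Values are log2 signals, so a difference of 1 is 2-fold, and levels are compared within a gene only, because probes of different genes differ in brightness. Array medians lay between 5.21 and 5.42, and pools of the same age correlated at 0.989 to 0.995 across genes. A background level of 4.92 was taken as the 95th percentile of 1344 olfactory and vomeronasal receptor genes, and all 9 genes lay above it at every age. The epididymal label was checked against 16 measured genes of the mature epididymal epithelium. At day 60 all 16 lay above background, among them Lcn5 and Adam7, while at day 7 the labelled tissue had 11 of them at or under it. Each comparison used limma's moderated test over all 14 pools, two-sided, with Benjamini-Hochberg adjustment over all 18166 genes and a threshold of 0.05. The share of genes called higher at day 28 than at day 18 was 42.3% of those called, or 31.7% with arrays centred on their medians. For day 60 against day 28 it was 55.2%, or 71.7% after centring.

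Every one of the 9 genes differed between ages by limma's F test, at adjusted p-values from 1.62e-09 for Mmp16 to 0.0041 for Mmp7, against 60.4% of all genes. That share includes dim genes, since 13236 of the 18166 had means above background. The 9 genes were also chosen with earlier results of these data known. Their courses differed. Mmp11, Mmp14 and Mmp16 had lower means at each later age. Mmp2, Timp2 and Timp3 had their lowest means at day 18, and Timp1 had its lowest at day 28. Mmp9 was highest at day 60, and Mmp7 went up and down with a wide spread between pools.

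**Figure D1:**
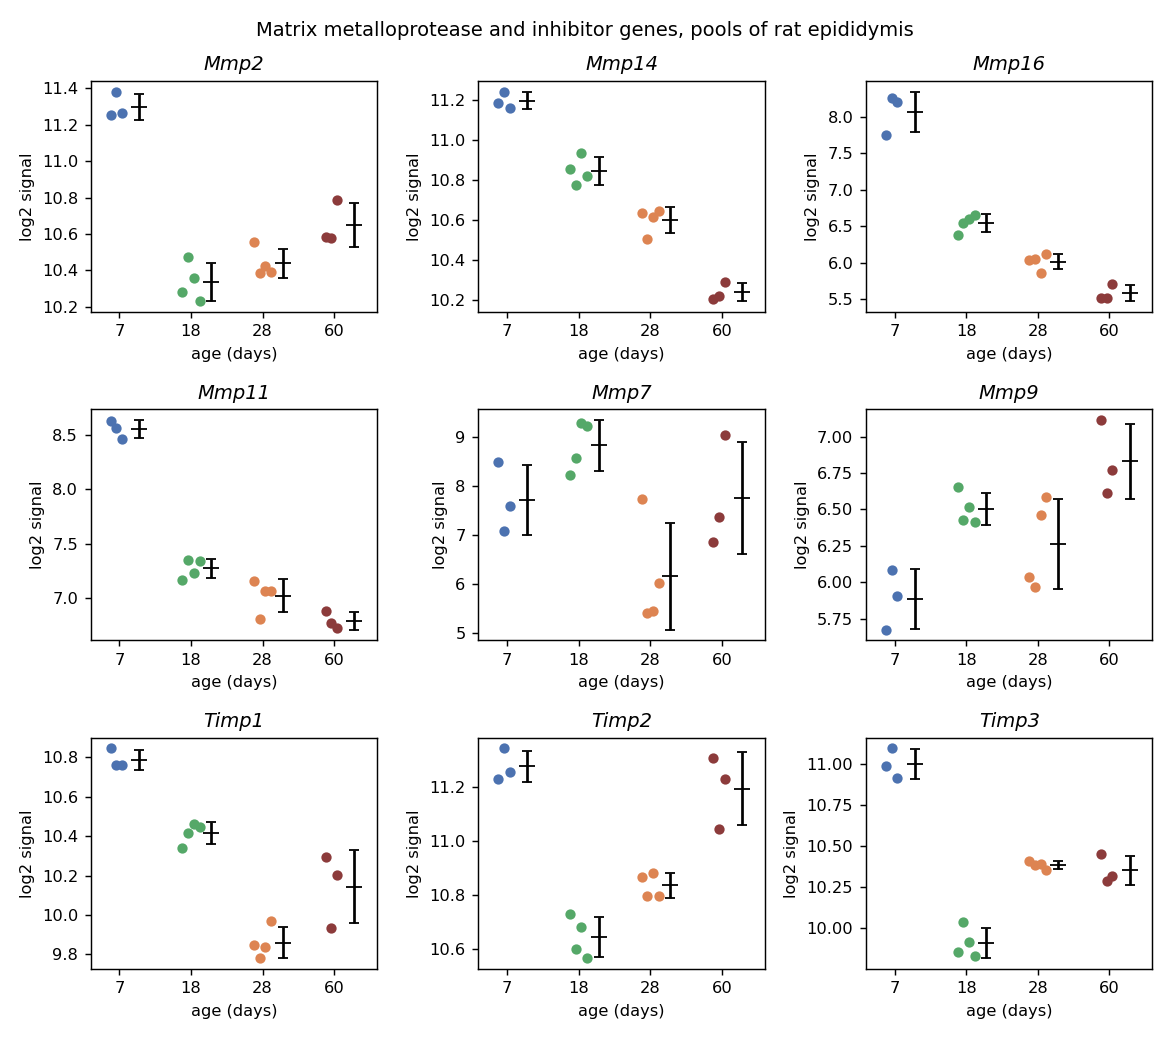
Log2 signal (vertical axis) against age in days (horizontal axis) for the 9 genes, 1 point per pool, with the mean and SD of each age as a bar beside the points. Day 7 pools lie above the pools of every later age for Mmp2, Mmp11, Mmp14, Mmp16, Timp1 and Timp3, and the 4 day 28 pools of Mmp7 run from 5.42 to 7.75.

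Day 18 against day 7 is the first step. In it 7 of the 9 genes fell, 1 rose and 1 did not pass the test, where 38.1% of all genes were called, 20.7% lower and 17.4% higher. Pools of the 2 ages did not overlap for 8 of the 9, beside 45.1% of all genes, and 3 were called with at least 2-fold change, beside 5.89%. The median difference of the 9 genes was -0.63 on the log2 scale, beside 0.01 for all genes. The largest falls were those of Mmp16, Mmp11 and Timp3, and the riser was Mmp9. In day 60 against day 7, the whole span, 6 of the 9 fell and 1 rose, where 49.2% of all genes were called, 27.6% lower and 21.7% higher. Pools did not overlap for 7 of the 9, beside 57.8% of all genes, and 2 were called with at least 2-fold change, beside 13.3%. The comparisons share pools, so they are not independent of each other.

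Mmp16 encodes a membrane-bound protease of the same group as that of Mmp14. Its log2 signals were 6.38, 6.55, 6.59 and 6.66 in the day 18 pools, against 7.75, 8.25 and 8.20 in the day 7 pools. The day 18 pools all lay below the day 7 pools, and Mmp16 fell by 1.52 ± 0.12 (log2 difference ± SE), or 2.87-fold (adjusted p = 1.06e-07). At day 28 the pools read 6.03, 6.04, 5.87 and 6.12 and at day 60 they read 5.51, 5.52 and 5.71, so no 2 ages overlapped. Over the whole span the fall was 5.6-fold, the largest of the 9 (log2 difference -2.48 ± 0.13, adjusted p = 4.02e-10).

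Mmp11, also called stromelysin 3, is made mostly by stromal cells and is activated inside the cell by the protease furin. Its day 18 pools had log2 signals of 7.17, 7.35, 7.23 and 7.34, against 8.63, 8.56 and 8.46 in the day 7 pools. The groups did not overlap, and Mmp11 fell by 1.28 ± 0.090, or 2.42-fold (adjusted p = 4.66e-08). Day 28 pools held 7.16, 6.81, 7.06 and 7.07 and day 60 pools 6.89, 6.77 and 6.72, and those 2 ages overlapped. From day 7 to day 60 the fall was 3.38-fold (adjusted p = 1.05e-09).

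Mmp14 had log2 signals of 10.86, 10.77, 10.94 and 10.82 in day 18 pools, against 11.19, 11.24 and 11.16 in day 7 pools. It fell by a smaller step than Mmp16 and Mmp11, 0.35 ± 0.069, or 1.28-fold (adjusted p = 0.000846). The later pools read 10.63, 10.50, 10.62 and 10.64 at day 28 and 10.20, 10.22 and 10.29 at day 60. No 2 ages of Mmp14 overlapped, and its SD between pools of 1 age, 0.059, was among the smallest of all genes, at rank 17824 of 18166 from the largest. It was 1.95-fold lower at day 60 than at day 7 (adjusted p = 4.05e-08).

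Mmp2 encodes gelatinase A, which cuts type IV collagen and denatured collagens. The day 18 pools read 10.28, 10.47, 10.36 and 10.23, against 11.25, 11.38 and 11.26 in the day 7 pools. The groups were well apart, and Mmp2 fell by 0.96 ± 0.084, or 1.95-fold (adjusted p = 3.84e-07). Its later course differed from that of Mmp14, its activator: day 28 pools read 10.56, 10.39, 10.42 and 10.39 and day 60 pools 10.58, 10.58 and 10.79. In both later steps its mean was higher without passing the test, by 0.10 (95% interval -0.06 to 0.27, adjusted p = 0.371) for day 28 against day 18. For day 60 against day 28 it was higher by 0.21 (0.03 to 0.39, adjusted p = 0.0873). At day 60 Mmp2 was still 1.57-fold lower than at day 7 (adjusted p = 2.17e-05).

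Timp3 encodes an inhibitor that binds to the matrix itself. Its log2 signals were 9.85, 10.04, 9.91 and 9.83 at day 18, against 10.99, 11.10 and 10.92 at day 7. It fell by 1.09 ± 0.076, or 2.13-fold (adjusted p = 4.02e-08), with no overlap. Timp2, a broad inhibitor of the family, read 10.73, 10.60, 10.68 and 10.56 in day 18 pools, against 11.23, 11.34 and 11.25 in day 7 pools. It fell by 0.63 ± 0.078, or 1.55-fold (adjusted p = 1.23e-05). Timp1, a soluble inhibitor that also binds the precursor of the Mmp9 enzyme, read 10.34, 10.42, 10.46 and 10.45 in day 18 pools, against 10.85, 10.76 and 10.76 in day 7 pools. Timp1 fell by 0.37 ± 0.087, or 1.29-fold (adjusted p = 0.0032). All 3 inhibitors thus had day 18 pools below every day 7 pool, with sizes from 1.29-fold to 2.13-fold.

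Mmp9 encodes gelatinase B, which leukocytes release and other cells make on stimulation. Its day 18 pools read 6.66, 6.43, 6.52 and 6.41, against 5.67, 6.08 and 5.90 in the day 7 pools. The groups did not overlap, and Mmp9 rose by 0.62 ± 0.16, or 1.53-fold (adjusted p = 0.00624). Its day 60 pools reached 7.11, 6.61 and 6.77, which is 1.93-fold above day 7 (adjusted p = 0.000257). In the fit of genes at or above the median level Mmp9 was not tested, because its mean of 6.37 lay under the median of 6.48.

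Markers of several cell types moved over the same step. Of 14 mesenchymal markers 12 were lower and 0 higher at day 18 than at day 7, with a median difference of -0.95, among them the fibroblast receptors Pdgfra and Pdgfrb. Their mean level ranged from 9.84 to 9.94 in day 18 pools, against 10.66 to 10.73 in day 7 pools. Of 12 epithelial markers 11 were higher and 1 lower, with a mean level of 9.65 to 9.77 in day 18 pools, against 8.85 to 9.10 in day 7 pools. The signals of a list were also summed on the linear scale. The log2 of the sum was 14.84 to 14.96 at day 18, against 15.41 to 15.50 at day 7, for mesenchyme. For epithelium it was 13.50 to 13.61 at day 18, against 12.69 to 12.91 at day 7. No epithelial marker and 1 mesenchymal marker, Twist1, lay under background at either age. Of 8 measured smooth muscle markers 0 were higher and 6 lower, with a median difference of -0.53, and of 8 measured endothelial markers 1 was higher and 6 lower, with a median of -0.61. The log2 of the summed muscle signal was 12.30 to 12.56 at day 18, against 12.87 to 13.20 at day 7, and none of either list lay under background. For endothelium it was 9.60 to 9.71 at day 18, against 10.31 to 10.43 at day 7. Of the 17 myeloid markers 3 were higher (Ltf, Ptprc and Mpo) and 1, Mrc1, was lower at day 18. The log2 of their summed signal was 10.61 to 10.88 in day 18 pools, against 10.35 to 10.57 in day 7 pools. Without Ltf, which gland epithelium also secretes, it was 10.35 to 10.54 in day 18 pools, against 10.26 to 10.48 in day 7 pools, and the ages overlapped. Genes typical of neutrophils did not share a level. S100a8, S100a9, Elane, Csf3r, Cxcr2 and Ngp lay under background at every age, while Camp lay just above it, with age means of 5.02 to 5.34. Mpo had a mean of 5.16 at day 18, against 4.57 at day 7 (adjusted p = 0.0213), and Ltf a mean of 8.21, against 6.46 (3.36-fold, adjusted p = 7.87e-08). The part of these shifts in cell type genes in the changes of the protease and inhibitor genes was not tested.

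**Figure D2:**
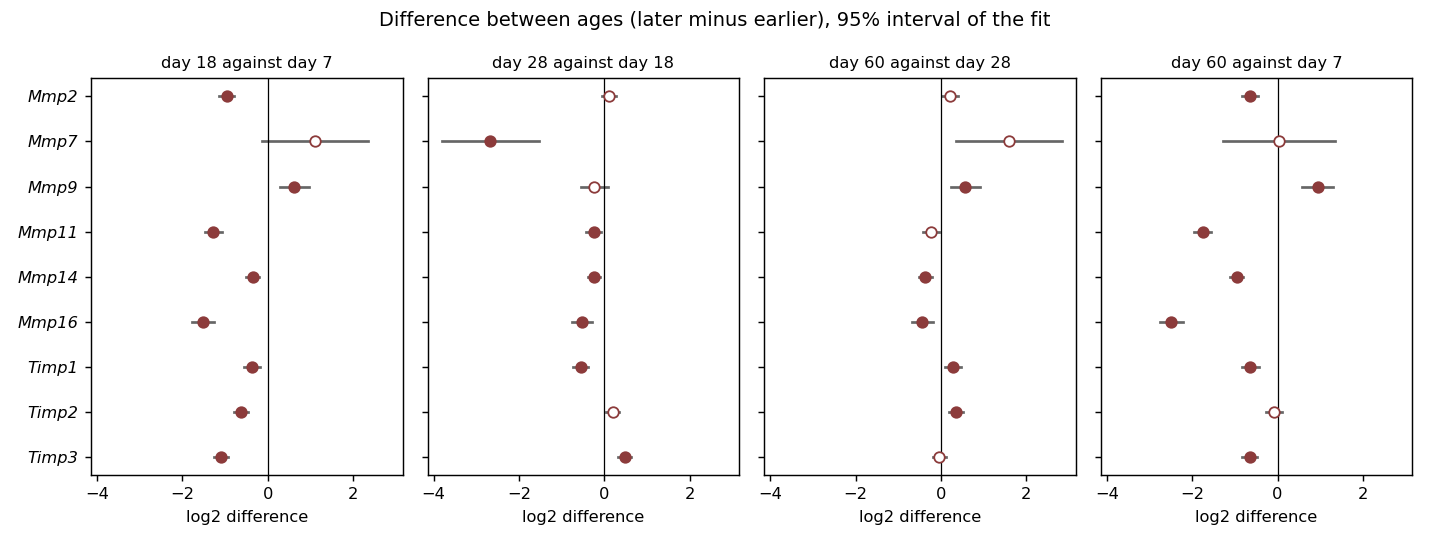
Log2 difference between ages, later minus earlier (horizontal axis), for each gene (vertical axis) in 4 comparisons, with the 95% interval of the fit as a line. Filled points have an adjusted p under 0.05. For day 18 against day 7 all filled points but Mmp9 lie left of 0, and for day 28 against day 18 Mmp7 has the lowest value at -2.67.

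In day 28 against day 18, 5 of the 9 genes fell, 1 rose and 3 did not pass, where 24.7% of all genes were called, 14.3% lower and 10.5% higher. Pools did not overlap for 7 of the 9, beside 26.5% of all genes, and only Mmp7 was called with at least 2-fold change, beside 2.16%. Protease and inhibitor genes did not move as a block: 4 of the 6 protease genes fell and 0 rose, while Timp1 fell, Timp3 rose and Timp2 did not pass.

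Mmp7 encodes matrilysin, a small member of the family without the hemopexin domain, and in mouse intestine it activates defensins. Its log2 signals were 7.75, 5.42, 5.45 and 6.03 in the day 28 pools, against 8.23, 8.57, 9.30 and 9.23 in the day 18 pools. Each day 28 pool lay below each day 18 pool, although pool 1 of day 28 stood closer to the day 18 pools than to the other day 28 pools. Mmp7 fell by 2.67 ± 0.53, or 6.35-fold (adjusted p = 0.00195), the largest difference of the 9 genes in any neighbouring-age step.

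Before and after that step the pools of Mmp7 overlapped. The day 7 pools read 8.49, 7.08 and 7.60, and the difference of day 18 against day 7 was 1.11 (95% interval -0.13 to 2.34, adjusted p = 0.152). It passed when only the pools of these 2 ages were fitted (adjusted p = 0.0382). Day 60 pools read 6.86, 7.36 and 9.05, and day 60 against day 28 gave 1.59 (0.36 to 2.83, adjusted p = 0.0572). That difference passed without pool 1 of day 28 (2.12, adjusted p = 0.00713) and without pool 1 of day 60 (2.04, adjusted p = 0.0366), and without pool 3 of day 60 it was 0.95. Between day 60 and day 7 the difference was 0.03, with an interval from -1.28 to 1.35.

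The spread of Mmp7 between pools of the same age was the second largest of all 18166 genes. Its pooled SD was 0.896 on the log2 scale, against a median of 0.149 over all genes, and the gene with the largest was Rgsl2h (0.929). The other members had pooled SDs between 0.059 (Mmp14) and 0.232 (Mmp9). The lowest Mmp7 pool, at 5.42, lay above the background level of 4.92. Epithelial markers had a mean level of 9.10, 8.85 and 9.07 in the day 7 pools, in the same order as Mmp7. They ranged from 9.65 to 9.77 in day 18 pools, from 9.35 to 9.44 in day 28 pools and from 9.14 to 9.23 in day 60 pools. The shared order was not kept at these ages. Pool 1 of day 18 had the highest epithelial mean, 9.77, and the lowest Mmp7, 8.23. Pool 1 of day 60 likewise had the highest epithelial mean, 9.23, and the lowest Mmp7, 6.86. At day 28 pool 2 was lowest in both, while pool 4 had the highest epithelial mean and pool 1 the highest Mmp7. Markers of the mature epididymal epithelium had a mean level of 9.37 in pool 1 of day 28, where Mmp7 was highest, against 9.57 to 9.76 in the other day 28 pools. At day 60 the pool with the highest Mmp7, pool 3, also had the lowest mean of these markers, 11.31. At day 7 and day 18 the pool with the highest Mmp7 had their highest mean, 4.50 in pool 1 of day 7 and 7.30 in pool 3 of day 18. The part of cell makeup in the Mmp7 spread was not tested. The Mmp7 SD stayed between 0.722 and 0.943 when each pool was left out in turn, with rank 2 or 3.

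**Figure D3:**
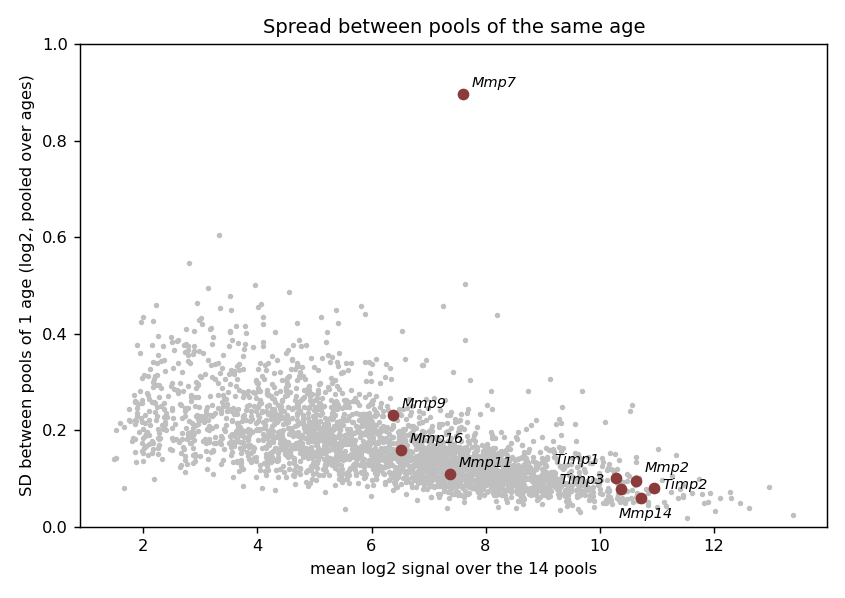
SD of the log2 signal between pools of 1 age, pooled over the 4 ages (vertical axis), against the mean log2 signal over 14 pools (horizontal axis). Grey points are a random selection of genes and red points the 9 genes, of which Mmp7 lies at 0.896 and the others at or under 0.232.

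The upstream sequence of Mmp7 is set beside those of Mmp11 and Timp3, which both fell over 2-fold at day 18, because Mmp7 had neither their course nor their small spread. RefSeq promoters on the rat build GRCr8 matched 5 of the 9 genes, those of Mmp7, Mmp11, Timp1, Timp2 and Timp3. The 250 bases before each start are given 5′ to 3′ on the gene's strand, at chr8:13132793-13133042 (plus strand), chr20:12730034-12730283 (plus strand) and chr7:19459559-19459808 (minus strand). Capitals mark the motifs TGANTCA, which AP-1 factors bind, TATAAA and GGGCGG, searched on both strands.
Mmp7: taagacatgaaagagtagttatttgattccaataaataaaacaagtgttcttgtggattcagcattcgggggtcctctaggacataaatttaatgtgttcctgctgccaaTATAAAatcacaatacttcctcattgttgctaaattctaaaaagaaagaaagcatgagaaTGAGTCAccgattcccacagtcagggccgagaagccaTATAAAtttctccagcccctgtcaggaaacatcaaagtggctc
Mmp11: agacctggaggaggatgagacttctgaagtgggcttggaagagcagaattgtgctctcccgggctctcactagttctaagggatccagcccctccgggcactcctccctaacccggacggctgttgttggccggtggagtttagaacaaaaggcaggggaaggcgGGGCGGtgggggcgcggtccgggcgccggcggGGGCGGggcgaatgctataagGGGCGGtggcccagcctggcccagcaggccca
Timp3: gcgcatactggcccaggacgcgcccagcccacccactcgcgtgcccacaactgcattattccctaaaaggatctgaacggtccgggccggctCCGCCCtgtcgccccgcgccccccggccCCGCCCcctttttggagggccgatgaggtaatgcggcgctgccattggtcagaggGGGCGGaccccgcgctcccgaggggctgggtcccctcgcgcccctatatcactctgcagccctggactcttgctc
Mmp7 held 1 TGANTCA match, which starts 80 bases before the gene's start, and 2 TATAAA matches, at 140 and 43 bases before it. It held no GGGCGG match. Mmp11 and Timp3 held 3 GGGCGG matches each and none of the other motifs, and no matches overlapped. Timp1 and Timp2 held 1 GGGCGG match each. The GC content of the window was 38.8% for Mmp7, against 66% for Mmp11 and 69.6% for Timp3, with a median of 52% over 27457 promoters. Among those promoters 6.36% held TGANTCA, 13.1% TATAAA and 32.4% GGGCGG. These matches describe letters in a window and not binding.

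Timp1 had log2 signals of 9.85, 9.78, 9.84 and 9.97 at day 28, against 10.34 to 10.46 at day 18. It fell by 0.56 ± 0.080, or 1.47-fold (adjusted p = 0.000129), with no overlap. Timp3 went the other way, with 10.41, 10.39, 10.39 and 10.36 at day 28, against 9.83 to 10.04 at day 18. It rose by 0.48 ± 0.071, or 1.39-fold (adjusted p = 0.000163). Timp2 read 10.87, 10.79, 10.88 and 10.80 at day 28, against 10.56 to 10.73 at day 18. Its pools did not overlap, but the difference of 0.19 (95% interval 0.04 to 0.35) had an adjusted p of 0.0667.

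Among the proteases, Mmp16 fell by a further 0.53 ± 0.11, or 1.44-fold (adjusted p = 0.00234), and Mmp14 by 0.25 ± 0.064, or 1.19-fold (adjusted p = 0.0108). Mmp11 fell by 0.25 ± 0.084 (adjusted p = 0.0423). This last call was lost with 9 of the 14 pools left out in turn, with the log2 difference between -0.29 and -0.18. The Mmp9 pools of day 28 formed 2 pairs, at 6.03 and 5.97 and at 6.46 and 6.58, against 6.41 to 6.66 at day 18. The Mmp9 difference of -0.24 (95% interval -0.56 to 0.07) did not pass (adjusted p = 0.265).

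Smooth muscle and endothelial markers moved over this step. Of 8 measured smooth muscle markers 7 were higher at day 28 and 0 lower, with a mean level of 9.24 to 9.51 in day 28 pools, against 8.63 to 8.90 in day 18 pools. Of 8 measured endothelial markers 4 were higher and 0 lower. None of either list lay under background. The log2 of the summed signal was 12.89 to 13.19 at day 28, against 12.30 to 12.56 at day 18, for muscle. For endothelium it was 9.93 to 10.06 at day 28, against 9.60 to 9.71 at day 18. Of the 14 mesenchymal markers 4 were higher and 2 lower, and of the 12 epithelial markers 6 were lower and 0 higher. Their part in the changes of Timp1, Timp3 and Mmp7 was not tested.

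In day 60 against day 28, 3 of the 9 genes rose, 2 fell and 4 did not pass, where 25.0% of all genes were called, 13.8% higher and 11.2% lower. The risers were Mmp9, Timp1 and Timp2, and Mmp14 and Mmp16 fell. None of these differences reached 2-fold, beside 1.95% of all genes, and pools did not overlap for 5 of the 9, beside 31.4%.

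Timp2 read 11.31, 11.04 and 11.23 in day 60 pools, against 10.87, 10.79, 10.88 and 10.80 in day 28 pools. It rose by 0.36 ± 0.078, or 1.28-fold (adjusted p = 0.00357), without overlap. At day 60 its level overlapped that of day 7, with a difference of -0.08 (95% interval -0.26 to 0.10, adjusted p = 0.461). Timp1 read 10.29, 9.94 and 10.20 in day 60 pools, against 9.78 to 9.97 in day 28 pools, and the groups overlapped through pool 2 of day 60. Timp1 rose by 0.29 ± 0.087 (adjusted p = 0.0261), a call lost without pool 2 or 3 of day 28 (adjusted p = 0.0523 and 0.0558) and without pool 1 or 3 of day 60 (0.125 and 0.0977). For Timp3 the difference was -0.03 (-0.20 to 0.13, adjusted p = 0.788).

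Mmp9 rose by 0.57 ± 0.16, or 1.48-fold (adjusted p = 0.0171), and its day 60 pools, from 6.61 to 7.11, lay above the day 28 pools at 5.97 to 6.58. Without pool 1 of day 60 the rise was 0.43 and did not pass (adjusted p = 0.0938). Of the 17 myeloid markers 5 were higher and 1 lower over this step, with a mean level of 5.93 to 6.02 in day 60 pools, against 5.75 to 5.80 in day 28 pools. The log2 of their summed signal was 11.15 to 11.27 in day 60 pools, against 11.07 to 11.25 in day 28 pools. Ltf, a large part of that sum, was the marker that fell, by 0.66 (adjusted p = 0.00189). Without it the sum was 10.70 to 10.84 in day 60 pools, against 10.30 to 10.41 in day 28 pools, a choice made after seeing the data. The markers that rose were Ptprc, Cd68, Cd163, Mrc1 and Cxcr2, the last of them under background at both ages. Cd163, a scavenger receptor of macrophages, had a mean of 7.02 at day 60, against 5.76 at day 28. The part of leukocytes in the Mmp9 level was not tested. Of 11 germ cell markers 7 were higher at day 60 and 0 lower, with 2 of 11 under background at day 60, against 9 of 11 at day 28. The log2 of their summed signal was 10.76 to 11.23 at day 60, against 7.95 to 8.18 at day 28.

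Mmp14 fell by 0.36 ± 0.069, or 1.29-fold (adjusted p = 0.00148), and Mmp16 by 0.44 ± 0.12, or 1.35-fold (adjusted p = 0.0138). The Mmp16 call was lost without pool 1 or pool 2 of day 60 (adjusted p = 0.0544 and 0.0533). Mmp11 was lower by a log2 difference of -0.23 (95% interval -0.42 to -0.04, adjusted p = 0.0783). In these pools 7 of the 14 mesenchymal markers were lower at day 60 and 1 was higher, with a mean level of 9.65 to 9.69, against 9.95 to 10.06 at day 28. The log2 of their summed signal was 14.66 to 14.70 at day 60, against 14.92 to 15.04 at day 28, and their part in the falls of Mmp14 and Mmp16 was not tested.

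Because a protease and its inhibitor were measured on the same array, their log2 difference within a pool shows whether they changed unequally. Its zero point is arbitrary, since 2 probe sets are involved. For Mmp14 minus Timp2 the means were -0.08 ± 0.029 (SD, n = 3) at day 7, 0.20 ± 0.063 (n = 4) at day 18, -0.23 ± 0.060 (n = 4) at day 28 and -0.96 ± 0.14 (n = 3) at day 60. No neighbouring ages overlapped, and the step of day 60 against day 28 was -0.72. For Mmp2 minus Mmp14 the means were 0.10 ± 0.037, -0.51 ± 0.14, -0.16 ± 0.079 and 0.41 ± 0.075 over the same ages and pools. Relative to Mmp14, Mmp2 was lowest at day 18 and highest at day 60, again with no overlap between neighbouring ages. Mmp2 minus Timp2 had means of 0.02 ± 0.016, -0.31 ± 0.13, -0.39 ± 0.062 and -0.55 ± 0.16, with overlap between neighbours after day 18.

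Mmp9 minus Timp1 averaged -4.90 ± 0.25 in day 7 pools, -3.91 ± 0.16 in day 18 pools, -3.60 ± 0.25 in day 28 pools and -3.31 ± 0.13 in day 60 pools. Day 60 thus stood 1.59 above day 7. Mmp7 minus Timp1 had means of -3.07 ± 0.67, -1.59 ± 0.47, -3.70 ± 1.08 and -2.39 ± 1.15, and only day 18 and day 7 did not overlap among neighbouring ages. In two-sided exact permutation tests over 5 differences and 4 comparisons, 20 in all, no adjusted p was under 0.114. The smallest p these designs allow is 0.0286 for 4 pools against 4, 0.0571 for 4 against 3 and 0.1 for 3 against 3. With these floors, adjustment over 20 tests could not bring any p under the threshold, even with complete separation in every test. The tests therefore cannot decide whether a within-pool difference changed with age, and no conclusion is drawn from them. The lowest raw p, 0.0286, was that of Mmp14 minus Timp2 and of Mmp2 minus Mmp14 for day 28 against day 18.

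**Figure D4:**
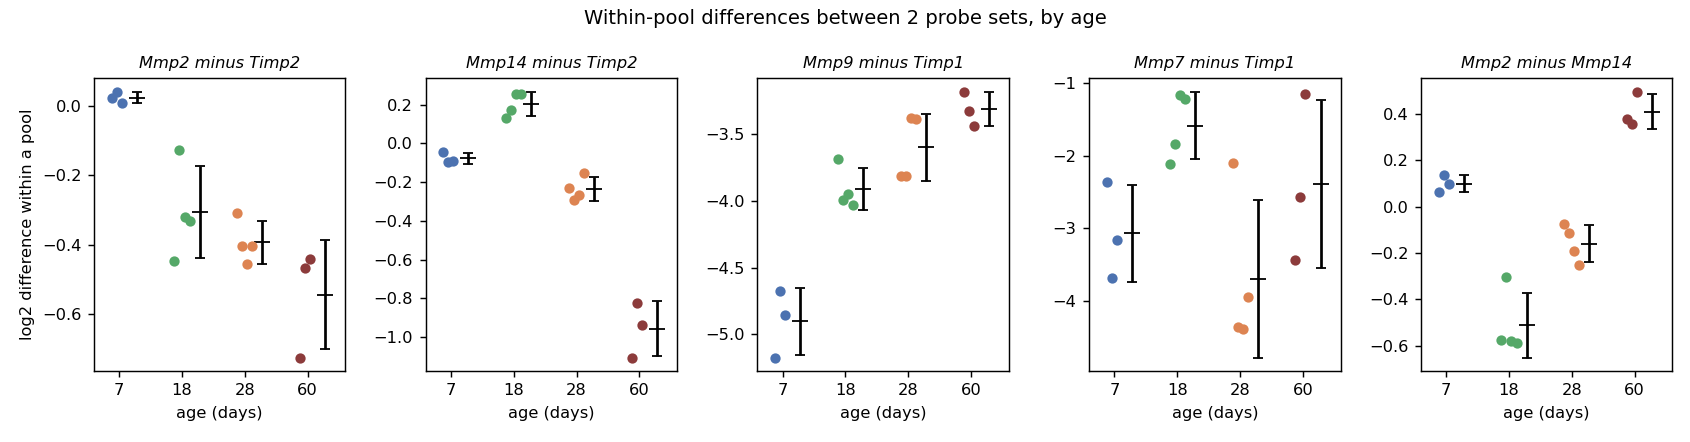
Difference in log2 signal between 2 genes within each pool (vertical axis) by age in days (horizontal axis), 1 point per pool, with mean and SD beside the points. Mmp14 minus Timp2 is lowest in the 3 day 60 pools (mean -0.96), and Mmp2 minus Mmp14 is highest there (mean 0.41).

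Most other genes of the family were dim. Of 17 listed, 15 were measured, and 9 of them had means over all pools at or under background, among them the collagenase genes Mmp1, Mmp8 and Mmp13 and the stromelysin genes Mmp3 and Mmp10. At day 18 against day 7, 4 of 15 were higher and 3 lower, at day 28 against day 18, 0 and 3, and at day 60 against day 28, 3 and 3. Timp4, the remaining inhibitor gene, peaked at day 18, with 7.97, 7.64, 7.87 and 7.44 in day 18 pools, against 5.73, 5.95 and 6.05 in day 7 pools. It rose by 1.82 ± 0.13, or 3.53-fold (adjusted p = 5.88e-08), while the other 3 inhibitor genes fell. By day 28 Timp4 read 6.73, 6.67, 6.31 and 6.51, a fall of 1.18 ± 0.12 against day 18 (adjusted p = 5.86e-06), and at day 60 it read 5.87, 5.72 and 5.70.

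Mmp15, a membrane-bound protease gene that many epithelia express, had the same outline. Its pools read 9.13, 8.92, 8.85 and 8.87 at day 18, against 7.85, 7.74 and 7.74 at day 7, a rise of 2.24-fold (adjusted p = 9.19e-08). It fell by 1.06 ± 0.082 at day 28 against day 18 (adjusted p = 3.23e-07) and had a mean of 7.36 ± 0.052 at day 60 (SD, n = 3). Mmp23 fell by 1.12 ± 0.10 at day 18 against day 7 (adjusted p = 6.43e-07). Mmp1 and Mmp8 were called higher at day 60 than at day 28, by 0.49 and 0.56, but both had day 60 means under background, so those sizes are uncertain. Mmp12, the elastase of macrophages, was called 1.77-fold higher at day 18 than at day 7, with a mean of 4.98 at day 18, just above background. Its day 7 mean of 4.15 lay under background, so that size is uncertain too.

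**Figure D5:**
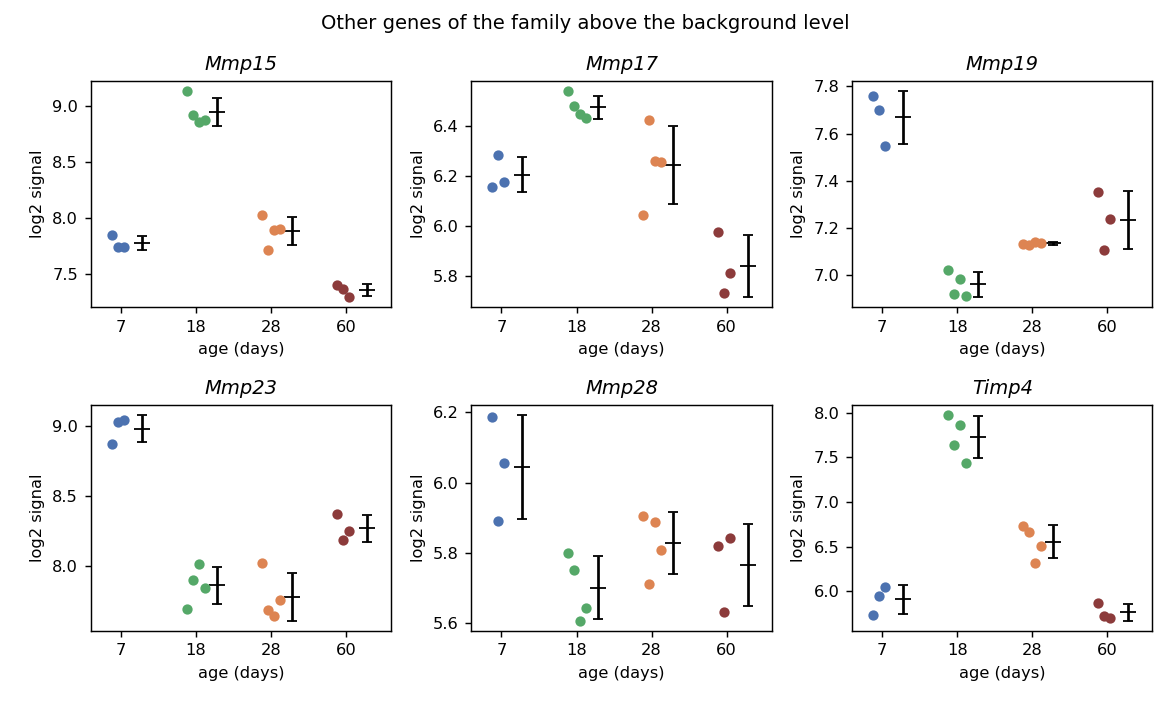
Log2 signal (vertical axis) by age in days (horizontal axis) for the 6 other family genes whose mean lay above background, 1 point per pool, with mean and SD beside the points. Mmp15 and Timp4 are highest in the day 18 pools, with means of 8.94 and 7.73, and Mmp23 is highest in the day 7 pools.

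Related proteases of the ADAM and ADAMTS families, which shed surface proteins and cut proteoglycans and procollagens, mostly fell early. Of 20 measured of 25 listed, 13 were lower and 2 higher at day 18 than at day 7, with a median difference of -0.53. Adam12, Adam19 and Adamts1 fell by 3.05-fold, 2.61-fold and 2.34-fold. Adam9 rose 2.24-fold (adjusted p = 1.49e-08) and was 3.19-fold higher at day 60 than at day 7. Over that whole span Adam12, Adamts19 and Adam19 were lower by 3.58-fold, 3.11-fold and 2.84-fold, and 13 of the 20 were lower and 2 higher. In day 28 against day 18, 3 rose and 5 fell, and in day 60 against day 28, 2 rose and 4 fell.

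Activators and controls of metalloproteases moved in both directions, with 3 of 20 measured higher and 10 lower at day 18 than at day 7. Reck, a membrane-anchored inhibitor of several of these proteases, fell by 1.10 ± 0.10 (adjusted p = 6.15e-07), and Thbs2, a matrix protein that takes part in clearing the Mmp2 enzyme, by 1.37 ± 0.13. St14, an epithelial serine protease, rose by 1.02 ± 0.072. Furin, which activates the precursors of Mmp11, Mmp14 and Mmp16, rose in each step and was 2.93-fold higher at day 60 than at day 7 (adjusted p = 5.18e-10). Serpinf2, which inhibits plasmin, rose 3.23-fold at day 28 against day 18 and 3.58-fold at day 60 against day 28. It was 19.9-fold higher at day 60 than at day 7, and Plat, the tissue plasminogen activator, was 2.22-fold lower. A2m, a broad protease trap, rose by 1.16 ± 0.15 at day 60 against day 28, from a day 28 mean of 5.04, just above background. Pcsk6, a furin-like convertase, was 3.1-fold lower at day 60 than at day 7, and Thbs2 was 3.88-fold lower. Over the steps to day 28 and to day 60, 4 of 20 rose in each, and 5 and 2 fell.

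Genes of the matrix proteins these enzymes cut fell at the same step as most of the 9 genes. Of 22 measured of 26 listed, 18 were lower and 2 higher at day 18 than at day 7, with a median difference of -0.62, close to the -0.63 of the 9 genes. Vcan, Fn1 and Col4a2 fell by 6.55-fold, 3.07-fold and 2.37-fold. In day 28 against day 18 only 2 rose and 1 fell, and in day 60 against day 28, 1 rose and 6 fell. Over the whole span Vcan was 5.59-fold lower, Col5a2, a fibrillar collagen gene, 3.91-fold lower (adjusted p = 5.98e-09) and Fn1 2.83-fold lower. Col1a1, Col1a2, Col3a1 and Dcn are also on the mesenchymal list, so the lists are not separate.

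The genes whose pattern was most like each member were taken by Pearson's r over the 14 pools, among 3002 genes whose age means spanned at least 1. The pools share their age steps, so these are descriptions. Mmp2 was closest to Ltbp1 (r = 0.981), which binds latent TGF-beta to matrix, then to Pdlim7 and Scrn1. Mmp11 was closest to Siva1 (0.992), Dcx (0.992) and Fkbp10 (0.989), a chaperone of collagen folding. Mmp14 was closest to Poglut3, Itm2a and the replication gene Mcm4 (each 0.989). Mmp16 was closest to the fetal growth factor gene Igf2 (0.991), then to Trpm5 and Cdon.

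For Timp3 the closest genes were Osr2, a transcription factor of mesenchyme (0.984), and the cytoskeletal genes Palld (0.977) and Tgfb1i1 (0.975). Once age means were removed, their r with Timp3 among pools of the same age was 0.818, 0.795 and 0.859. The same pools served to pick these genes, so this is no separate support. Picks of other members also had high values, such as 0.751 for Fkbp10 with Mmp11 and 0.731 for Sf3b4 with Timp1. Timp2 was closest to Kcnip3 (0.963), Papss2 and Etv1, and the last pair did not follow it within ages (r of -0.001 and 0.036). Timp1 was closest to the fetal claudin gene Cldn6 (0.974), then to Sf3b4 and Slc38a1. Mmp9 was closest to F2rl2 (0.906), Prf1 (0.901), the perforin gene of cytotoxic lymphocytes, and Cyp27a1 (0.886). Mmp7 had no close companion by this measure, the nearest being Cxadrl1 (0.833), Tnfaip2 (0.825) and Birc3 (0.765). Its wide spread between pools of 1 age limits r with genes that do not share that spread. Within ages their r with Mmp7 was 0.518, 0.522 and 0.304. Tnfaip2 and Birc3 are genes that tumour necrosis factor induces, and a part of this factor was not tested.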

How the data were processed

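Expression was measured on 1 RatGene 2.0 ST array per pool. The authors deposited log2 signals per transcript cluster (36685 clusters), made with RMA and the Transcriptome Analysis Console, per the submitters' processing notes. Versions and settings are not given in the sources used here. Groups came from the sample titles. Symbols came from the array annotation: 18511 clusters had 1 symbol, and for 291 genes with several clusters that with the highest mean was used, giving 18166 genes. Dim genes were kept.

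A linear model with a mean per age was fitted with limma 3.58.1 in R 4.3.3 (lmFit, eBayes), and calls needed an adjusted p under 0.05. Errors of levels are SDs and errors of differences SEs. The analysis was tested on simulated data. The 9 genes and the gene lists were chosen with earlier results of these data known. Of each pathway list, genes called with at least 2-fold change were named (up to 3 rises and 3 falls per comparison), and others only as examples of a list. The closest 3 genes of each member were named. The lists were other family genes, ADAM and ADAMTS genes, activators and controls, matrix substrates, and markers of mesenchyme, epithelium, smooth muscle, endothelium, myeloid cells, germ cells and epididymal epithelium. No array was identical to another. Deviations of same-numbered pools from their age means correlated at -0.14 to 0.05 over 19 pairs, so no pairing by number was seen. This cannot show that same-numbered pools share no animals or litters. Alternatives are in the closing section.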

Additional observations from a re-analysis of the deposited data

Results flagged for a closer look

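In the 28 groups of 4 pools that were checked (9 genes and 5 within-pool differences at day 18 and day 28), 1 pool stood apart from the others of its age. Mmp2 minus Mmp14 was -0.30 in pool 2 of day 18, against -0.59 to -0.58 in the other 3 pools of that age. That gap is 0.962 of the whole range of the group. Chance flags about 1 in 20 such groups.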

How the results depend on the processing

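Of the 824 single-gene values under alternatives, 761 kept their direction and their call or lack of one. Of the others 40 lost their call, 18 were newly called and 5 changed sign. The lost calls include those under 2-fold when at least 2-fold was asked for, where the adjusted p was unchanged. Mmp14 for day 60 against day 7 is an example (adjusted p = 4.05e-08). The unchanged values include averaging a gene's clusters, which cannot alter a gene with 1 cluster. The cause of the remaining changes was not tested. The sign changes concern 2 uncalled differences. With arrays centred on their medians, Timp3 for day 60 against day 28 was 0.0325 and Mmp7 for day 60 against day 7 was -0.0023. With each pool left out, that Mmp7 difference ranged from -0.61 to 0.48. All 9 genes passed the F test under each alternative run for it except that with genes at or above the median level, where 8 did and Mmp9 was not tested. The number higher at day 28 than at day 18 was 2 in place of 1 with quantile normalization, with genes at or above the median level, with an intensity trend and robust hyperparameters and with array weights. The added gene was Timp2, and the number ranged from 1 to 2 with a pool left out. The number higher at day 18 than at day 7 was 2 with only the pools of the 2 ages, and 0 with genes at or above the median level, where Mmp9 is not tested, as is the number for day 60 against day 7. With array weights 5 were higher at day 60 than at day 28, and the number lower there ranged from 1 to 3 with a pool left out. Calls of at least 2-fold left 0 higher and 3 lower for day 18 against day 7 (1070 of all genes), 0 and 1 for day 28 against day 18 (393), 0 and 0 for day 60 against day 28 (355) and 0 and 2 for day 60 against day 7 (2421). Mmp7 also passed for day 60 against day 28 with centring, with genes at or above the median level and with array weights (adjusted p = 0.0381, 0.0211 and 0.0262). Mmp11 for day 28 against day 18 lost its call with quantile normalization (adjusted p = 0.0791). With only the pools of the 2 ages it was also lost (0.0866), as was that of Timp1 for day 60 against day 28 (0.0926). The replicate block gave 1 higher and 7 lower for day 18 against day 7, 1 and 4 for day 28 against day 18, 3 and 2 for day 60 against day 28 and 1 and 6 for day 60 against day 7. It ended 1 call, that of Mmp11 for day 28 against day 18 (adjusted p = 0.0623), and the main fit did not use the numbers. The spread of Mmp7 was examined after seeing the data, and its pooled SD was 0.908 with quantile normalization and 0.902 with centring. The number of pools limits the precision.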
